A study of Mus musculus with 47 samples.

Results

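The subunits of the mitochondrial respiratory chain and of ATP synthase were followed across 17 sorted mouse bone marrow populations. A gene was taken where its single symbol in the array's probe annotation starts with Ndufa, Ndufb, Ndufc, Ndufs, Ndufv, Uqcr, Atp5, Cox4i, Cox5, Cox6, Cox7 or Cox8, or is Sdha, Sdhb, Sdhc or Sdhd, leaving out the Ndufaf assembly factors and Cox6a2. The rule found 81 of the 18194 genes with a single symbol. They are 36 subunits of complex I, 4 of complex II, 8 of complex III, 16 of complex IV and 17 of ATP synthase. Of these, 78 had a mean over 3.89, the median log2 value of the whole table, in at least 1 population and were tested. The 3 left untested are Cox7a1, Cox7b2 and Ndufb4. Of the tested subunits, 73 lay over that value in every population, so the filter could have chosen only the other 5 through a population where they are high.

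The 47 Affymetrix arrays hold RNA of 2000 sorted cells each from adult C57Bl6 bone marrow, put through a dual amplification before labelling, and the deposited values are linear probe set intensities after robust multi-array averaging (RMA). By label, 5 arrays hold LMPP and 4 each hold MkE and PreB. CFUE, PreCFUE, ProE, GMP, MkP and ETP have 3 each, and the remaining LTHSC, STHSC, GM, ProB, CLP, CD4, IgM+SP and NKmature have 2 each. No treatment or difference in genotype is stated. The short names are not spelled out there. The titles call the arrays biological replicates but do not say which animals were pooled or shared, so the p-values below rest on the spread among arrays, which may be partly technical. Defining markers lay over the filter in their own population apart from Hba-a1 in ProE (3.30) and Pax5 in ProB (3.82). In ProB the early B-lineage genes Ebf1 and Rag1 stood at 5.70 and 4.74, against 11.57 and 11.15 in PreB, so that group is called by its label only. None of the markers compared was highest in its own population for STHSC, MkE, PreCFUE and ProB, and these names are used as the labels give them.

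The respiratory chain passes electrons from NADH (complex I) and succinate (complex II) through complex III to oxygen at complex IV. Complexes I, III and IV pump protons across the inner mitochondrial membrane, and ATP synthase uses the return flow to make ATP. Complex II is the one complex encoded wholly in the nucleus, and it is also an enzyme of the tricarboxylic acid (TCA) cycle. Red cell precursors depend on mitochondria for heme synthesis as well as for ATP, while quiescent stem cells and resting lymphocytes are known for low mitochondrial activity. The mitochondrial genome encodes the remaining core subunits of the other complexes, and none of its 13 protein-coding genes was measured here. On these arrays fewer cells of a type and less RNA per cell cannot be told apart, and levels of different probe sets are not compared with each other.

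Promoters of respiratory genes are known for sites of nuclear respiratory factor 1 (NRF1), of the Ets factor GABP and of YY1, so the subunits' RefSeq promoter windows on GRCm38.p6, from 250 bases before to 50 bases after each gene's start, were searched on both strands for these and for 2 general promoter motifs. All 81 symbols matched RefSeq genes and 67 have such a window. The NRF1 letters GCATGCGC were found in 9 of the 67 subunit genes (13.4%), against 3.05% of 27025 genes. The Ets and GABP letters CCGGAAG were in 17 (25.4%), against 9.93% of all genes, and the YY1 letters AAGATGGCG were in 6 (8.96%), against 1.64%. The general motifs were spread more evenly. Sp1 (GGGCGG) was in 43.3% of the subunit genes and 38.2% of all genes, and NF-Y (CCAAT) in 41.8% and 41.1%. At least 1 of the first 3 motifs stood in 26 subunit genes (38.8%, against 13.6% of all genes), 2 or more stood in 6, and 41 subunit genes held none of them. Matches of different motifs overlapped once. The match is a description of letters, not of a bound site.

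Stretches of 60 bases show where the NRF1 letters lie in subunits of ATP synthase, complex I, complex II and complex IV, read 5′ to 3′ on the gene's own strand with the match in capitals. Atp5g2 encodes a copy of the membrane c subunit and lies at chr15:102671056-102671115 on the minus strand, with the match 34 bases before the start. Atp5k is at chr5:108434416-108434475, minus strand, Cox6a1 at chr5:115349087-115349146, minus strand, Ndufa6 at chr15:82354341-82354400, minus strand, and Sdhb at chr4:140961191-140961250, plus strand. Where the capitals run to 10 bases, the palindromic letters match on both strands.
Atp5g2: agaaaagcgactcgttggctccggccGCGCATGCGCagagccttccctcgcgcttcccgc
Atp5k: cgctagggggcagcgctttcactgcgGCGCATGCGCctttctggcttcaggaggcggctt
Cox6a1: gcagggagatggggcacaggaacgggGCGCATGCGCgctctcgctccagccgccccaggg
Ndufa6: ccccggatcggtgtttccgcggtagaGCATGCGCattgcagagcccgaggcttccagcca
Sdhb: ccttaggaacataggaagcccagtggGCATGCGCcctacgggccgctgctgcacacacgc

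The Ets letters stood in 5 of the 7 windows available for the 8 subunits whose level varied most among populations, and they are shown because the levels of these subunits are described below. No link between letters and levels was tested. Atp5l (chr9:44920933-44920992, minus strand) holds both the NRF1 and the Ets letters, the Ets match standing as CTTCCGG, its reverse complement. Sdhd is at chr9:50603863-50603922, Uqcr11 at chr10:80406855-80406914, Uqcrh at chr4:116075071-116075130 and Atp5e at chr2:174464171-174464230, all on the minus strand. The window of Uqcr11 holds the NRF1 letters too, outside the stretch shown. The windows of Cox6b2 and Cox7c, the other 2, hold none of the first 3 motifs, nor do those of Cox7a2l and Cox8b.
Atp5l: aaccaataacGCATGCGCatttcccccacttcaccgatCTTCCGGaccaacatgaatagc
Sdhd: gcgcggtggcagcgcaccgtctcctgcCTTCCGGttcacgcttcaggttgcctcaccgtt
Uqcr11: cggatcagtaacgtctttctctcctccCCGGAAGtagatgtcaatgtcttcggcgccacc
Uqcrh: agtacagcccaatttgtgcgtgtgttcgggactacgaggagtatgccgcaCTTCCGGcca
Atp5e: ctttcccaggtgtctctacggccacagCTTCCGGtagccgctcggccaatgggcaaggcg

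Subunit levels were highest in the erythroid populations and lowest in CLP, IgM+SP and ETP. Each subunit's log2 level was set against its own mean over the 17 populations and averaged over the 78 tested subunits, which gives a centred level per array. CFUE stood at 0.80 ± 0.03 (SD, n = 3), PreCFUE at 0.57 ± 0.20 (SD, n = 3) and ProE at 0.49 ± 0.0027 (SD, n = 3). In CFUE 73 of the 78 subunits lay above their own mean, in PreCFUE 75 and in ProE 67. The 2 CLP arrays averaged -1.15, the 2 IgM+SP arrays -0.76, and the 3 ETP arrays -0.47 ± 0.10 (SD, n = 3). In CLP 3 subunits lay above their own mean and in IgM+SP 2. The same mean over all genes tested was lowest in CLP too, at -0.25, then in MkP (-0.11) and IgM+SP (-0.09). For the subunits the other populations followed in the order MkP -0.24, LMPP -0.17, LTHSC -0.12, PreB -0.03, STHSC 0.03, MkE 0.04, GMP 0.10, CD4 0.14, ProB 0.21, GM 0.21 and NKmature 0.34. The pooled SD between arrays of a population was 0.20. Of the steps between neighbours in this order, CLP to IgM+SP (0.39), IgM+SP to ETP (0.30), ETP to MkP (0.22) and PreCFUE to CFUE (0.22) exceeded it, so the populations from MkP to PreCFUE form a run without a gap larger than that spread.

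**Figure D1:**
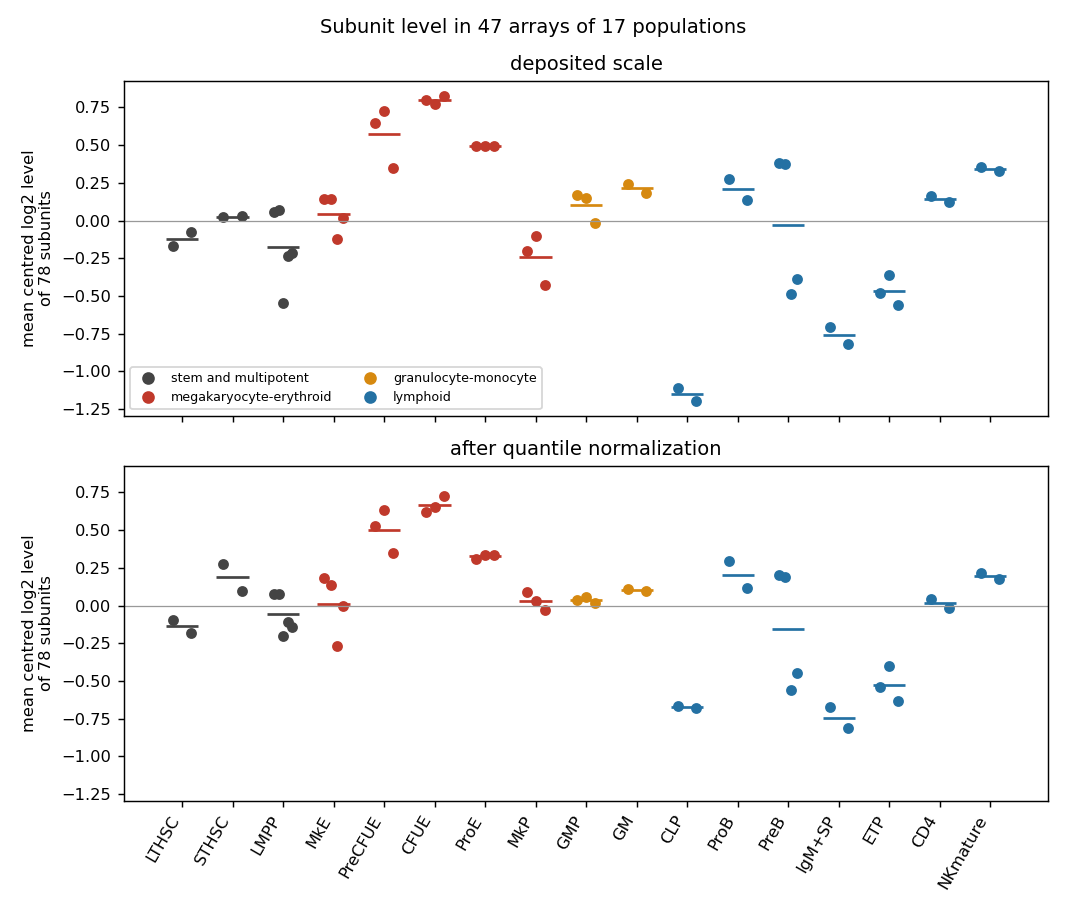
Mean centred log2 level of the 78 tested subunits in each of the 47 arrays, on the deposited scale (top) and after quantile normalization (bottom). Populations stand in a fixed order by lineage, with points for arrays, bars for group means and colour for the lineage the population's name and markers point to. On the deposited scale the arrays of CLP lie lowest and those of CFUE highest, and the PreB arrays split into a pair near 0.38 and a pair at -0.49 and -0.39.

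After quantile normalization the 3 erythroid populations were again highest and IgM+SP, CLP and ETP lowest, with smaller distances. CFUE then stood at 0.67, PreCFUE at 0.50 and ProE at 0.33, against -0.74 in IgM+SP, -0.67 in CLP and -0.52 in ETP. IgM+SP and CLP changed places, and the mean over all genes in CLP was then -0.02. MkP moved from -0.24 to 0.03. The span from the lowest to the highest population was 1.95 on the deposited scale and 1.41 after quantile normalization, and it was 2.22 where each array was centred on its median. After quantile normalization the step from ETP to PreB (0.37) was the only one between neighbours larger than the pooled SD of the deposited scale (0.20). The next largest, from ProE to PreCFUE, was 0.18.

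Complex II, the succinate dehydrogenase that belongs to both the chain and the TCA cycle, showed the widest swing of its mean level among populations. That mean is over 4 subunits. The median range of single subunits was 2.70 in complex II and 3.25 in complex III, and 2.71 and 2.51 after quantile normalization. The centred level of complex II was 1.08 in CFUE and -1.71 in CLP, where complex IV stood at 0.53 and -0.54. Complex III went from 1.06 in CFUE to -1.51 in CLP, complex I from 0.80 to -1.20 and ATP synthase from 0.82 to -1.25. Some populations divided by complex. NKmature stood at 0.52 for ATP synthase and 0.40 for complex I but at -0.31 for complex II, and after quantile normalization at 0.36 and -0.49 for ATP synthase and complex II. LTHSC stood at -0.26 for complex I, while its 2 arrays lay apart for complex II, at 0.0389 and 0.76. MkP was lowest for complex II at -0.61, with the other complexes between -0.40 and -0.19, and after quantile normalization complex I and ATP synthase in MkP were both at 0.09. GMP stood at 0.24 for complex I and -0.11 for ATP synthase. These divisions between complexes were not tested.

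**Figure D2:**
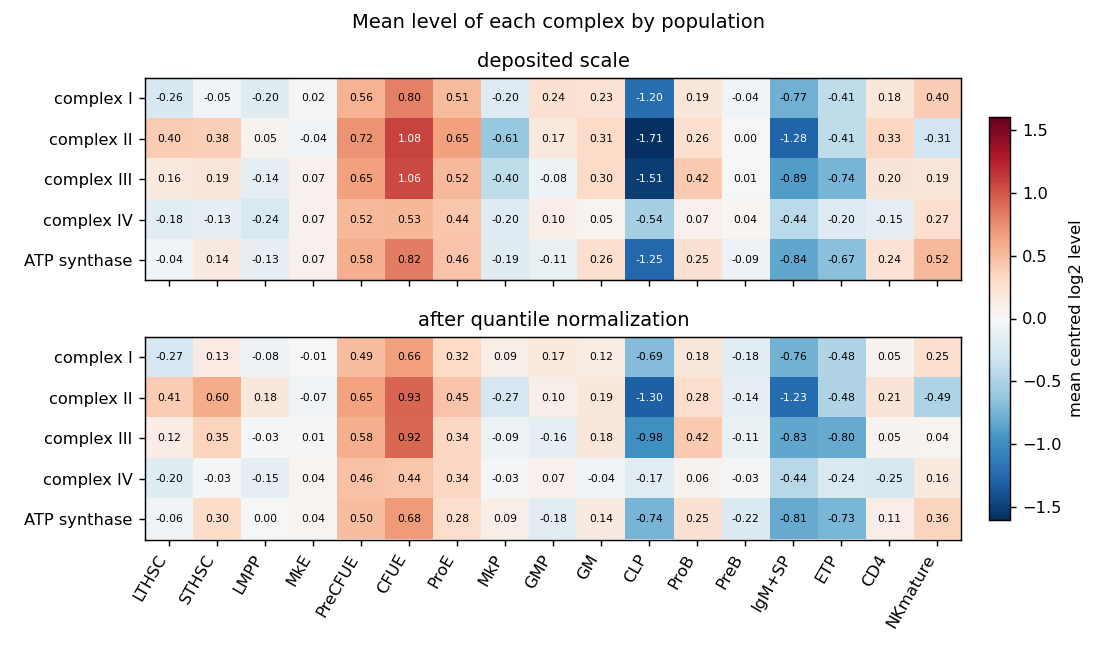
Mean centred log2 level of the tested subunits of each complex (rows) in each population (columns), on the deposited scale and after quantile normalization, with red above and blue below each subunit's own mean. The erythroid populations are red in all 5 complexes on both scales, CLP and IgM+SP are blue in all 5, and NKmature is blue in complex II alone.

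The low and high populations also differed in a measure of RNA integrity. The log2 gap between the 3′ and 5′ control probe sets of Actb, which widens as amplified RNA is cut short, was 5.14 to 5.31 in CLP, 6.18 to 6.53 in IgM+SP and 5.99 to 6.17 in ETP, against 2.60 to 3.57 in CFUE, 3.25 to 4.26 in PreCFUE and 1.04 to 1.24 in CD4. GMP had a gap of 6.32 to 6.54 with a centred level of 0.10, so a wide gap was not found in low populations alone. Within PreB, arrays 1 and 2 had gaps of 1.59 and 2.41 and levels of 0.38 each, and arrays 3 and 4 had gaps of 6.11 and 5.26 and levels of -0.49 and -0.39. The arrays also fell into classes by Xist and the Y-linked Eif2s3y. Xist alone was over 7 in 21 arrays, Eif2s3y alone was over 5 in 19, and both were in 7. MkE and LTHSC, ProE and CFUE, CD4 and ETP, and NKmature and CLP share no class, so in those comparisons class and population cannot be told apart from those arrays alone. In the LMPP population arrays 1 and 2 (Eif2s3y alone) stood at 0.06 and 0.07 and arrays 3 to 5 (both genes) at -0.55, -0.24 and -0.22. Comparisons are therefore given also with the Actb gap as a covariate, with the class as a block, or within the shared class, wherever this changed the result. PreB is the only population with arrays of Xist alone and arrays of Eif2s3y alone. The block therefore takes the difference between those classes from the PreB arrays, whose Actb gaps differ too. Where the compared populations fall in those classes without sharing one, the block cannot decide the direction of a difference. No arrays of a population were copies, since the SD of the log2 difference between arrays of a population was 0.19 or more over the 13949 genes tested.

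**Figure D3:**
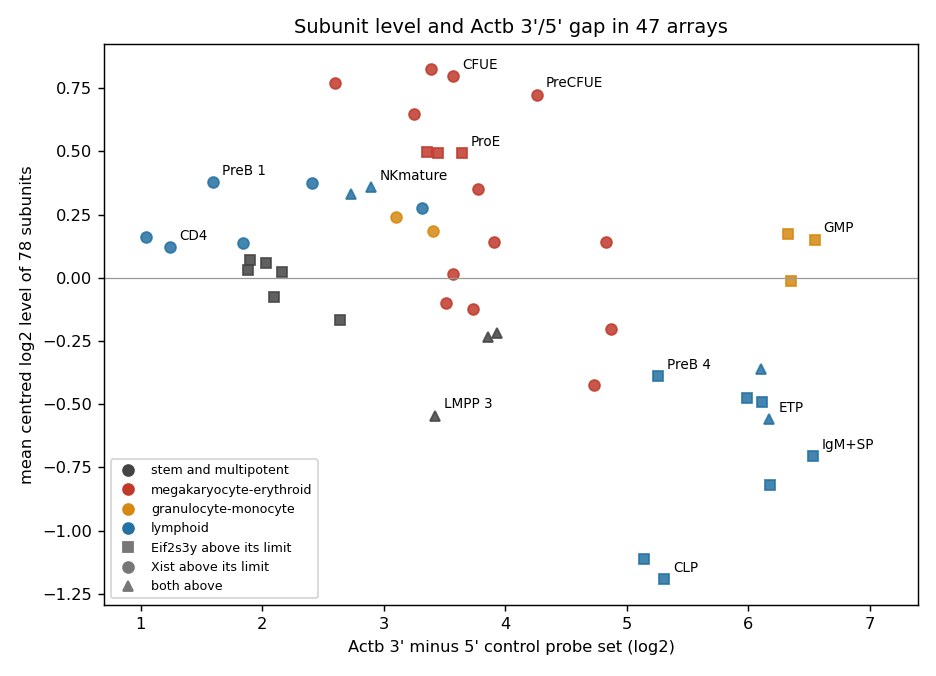
Centred log2 level of the 78 tested subunits (vertical axis) against the log2 gap between the 3′ and 5′ control probe sets of Actb (horizontal axis) in 47 arrays, coloured by lineage, with squares for arrays with Eif2s3y alone, circles for Xist alone and triangles for both. CLP, IgM+SP, ETP and PreB arrays 3 and 4 combine a gap over 5 with a level below 0, while the GMP arrays combine gaps of 6.32 to 6.54 with levels near 0.10.

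By limma's moderated F-test over the 17 populations, 75 of the 78 subunits differed at an adjusted p under 0.05. This is close to the background, since 90.3% of all genes tested passed. The 3 that did not pass were the alternative complex IV subunits Cox8b (adjusted p 0.104) and Cox4i2 (0.184), and Ndufa4l2 (0.435). All 3 lay near the filter, with population means no higher than 4.58, 4.06 and 4.00. CFUE was the highest population for 37 of the 78 subunits, and one of PreCFUE, CFUE and ProE for 46. CLP was the lowest for 44, and one of CLP, IgM+SP and ETP for 65. After quantile normalization CFUE was highest for 29 and one of the 3 erythroid populations for 37, IgM+SP was lowest for 27 and CLP for 19, and one of CLP, IgM+SP and ETP for 58. The median range between a subunit's lowest and highest population was 2.22, and 1.96 after quantile normalization.

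Most subunits moved much alike over the 17 population means, with the lowest agreement among some subunits of complex IV. The correlation of a subunit with the mean of the other subunits had a median of 0.79 (0.68 after quantile normalization), over 17 population means that share arrays and scaling. It was over 0.5 for 68 subunits and under 0 for 4. The median was 0.83 in complex II, 0.81 in complex I and in ATP synthase, 0.73 in complex III and 0.50 in complex IV. Of the 14 subunits of complex IV, 7 were over 0.5 and 4 under 0. These 14 include Cox8b and Cox4i2, which lay near the filter, and Cox8c, with a range of 0.79. Ndufv1, the NADH-binding subunit of complex I, singled out after its value was seen, had the highest correlation at 0.95.

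The largest range was that of Cox6b2, the testis-type copy of a complex IV subunit. Its level was 3.00 and 3.09 in IgM+SP, and 8.21, 8.43 and 8.45 in CFUE, a range of 5.32 between population means. It stood between 6.83 and 8.45 on every MkE, PreCFUE, CFUE and ProE array and at 6.20 or lower on every other array, so the 2 sets of arrays did not overlap. Its widely expressed copy Cox6b1 had a range of 1.83 and lay between 10.62 and 12.77 on all arrays.

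Sdhd, the membrane anchor of succinate dehydrogenase, measured 6.32 and 4.51 in CLP and 9.99, 10.48 and 10.16 in CFUE, a range of 4.79 between means. Sdhc, the other anchor, had a range of 3.35 from IgM+SP (5.21 and 5.40) to CFUE, and the iron-sulfur subunit Sdhb one of 2.06. Sdha, the flavoprotein that oxidises succinate, was lowest in NKmature, at 9.39 and 9.33, and stood at 10.99, 11.11 and 11.27 in CFUE, a range of 1.77. On the probe sets used, the catalytic subunit thus varied least of the 4, while the anchors varied most. A second probe set of Sdhc gave -0.72 for PreB minus CLP and -0.86 for NKmature minus CLP. The one used gave 1.69 and 2.04.

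In complex III, Uqcrq, a small ubiquinone-binding subunit, measured 6.39 and 6.26 in CLP, 8.73, 8.69, 8.10 and 8.29 in MkE, 9.89, 10.14 and 9.20 in PreCFUE, 10.14, 10.42 and 10.39 in CFUE and 8.82, 8.87 and 8.90 in ProE. Its highest arrays were those of CFUE and PreCFUE, and the ProE arrays lay below all of them. Uqcr11 went from 6.53 and 6.34 in IgM+SP to 10.84, 10.82 and 10.93 in CFUE, a range of 4.43. Uqcrh, the hinge protein that contacts cytochrome c1, had a range of 4.37 from CLP (6.45) to LTHSC (10.82). Uqcrb varied little, by 0.94 from NKmature (12.47) to PreCFUE (13.41).

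The ATP synthase subunits Atp5l and Atp5e had their peak outside the erythroid line. Atp5l, subunit g of the membrane part, measured 4.35 and 5.00 in CLP and 9.57 on both NKmature arrays, and no other array exceeded 7.77. Atp5e, the epsilon subunit of the rotor, measured 5.57 and 6.64 in CLP and 10.23 and 10.20 in NKmature. The 3 genes for the same c subunit of the rotor ring followed different orders. Atp5g1 was lowest in IgM+SP and highest in CFUE with a range of 2.99, and Atp5g3 ranged over 1.55 from CLP to CFUE. Atp5g2 ranged over 3.77 from GMP, at 6.88, 6.67 and 6.67, to STHSC, at 10.36 and 10.67.

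Some subunits of complex IV went their own way. Cox7c was lowest in MkP, at 4.75, 4.81 and 4.82, and highest in IgM+SP, at 8.63 and 8.87, a population where nearly all other subunits were low. Its correlation with the mean of the other subunits was -0.25, and -0.55 after quantile normalization. Cox7a2l, which joins complexes III and IV into a supercomplex, had a correlation of 0.05 (-0.49 after quantile normalization), with its lowest mean in MkP (10.64) and its highest in CD4 (12.15). Cox8c (-0.32), Cox8b (-0.22) and Cox4i2 (-0.10) were the others below 0, and after quantile normalization they stood at -0.27, 0.0386 and 0.12. Cox8b and Cox4i2 lay near the filter in all populations. Cox8c had a range of 0.79, and of 1.39 after quantile normalization. Cox4i1, the common form of subunit 4, went from 9.80 in CLP to 12.03 in CFUE, a range of 2.24. Cox6a1 ranged over 1.83 from LTHSC to NKmature, Cox7a2 over 2.08 and Cox8a over 2.17 from ETP to ProB. Ndufa4, first assigned to complex I and now placed with complex IV, ranged over 3.50 from IgM+SP to CFUE, and its relative Ndufa4l2 over 0.41.

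**Figure D4:**
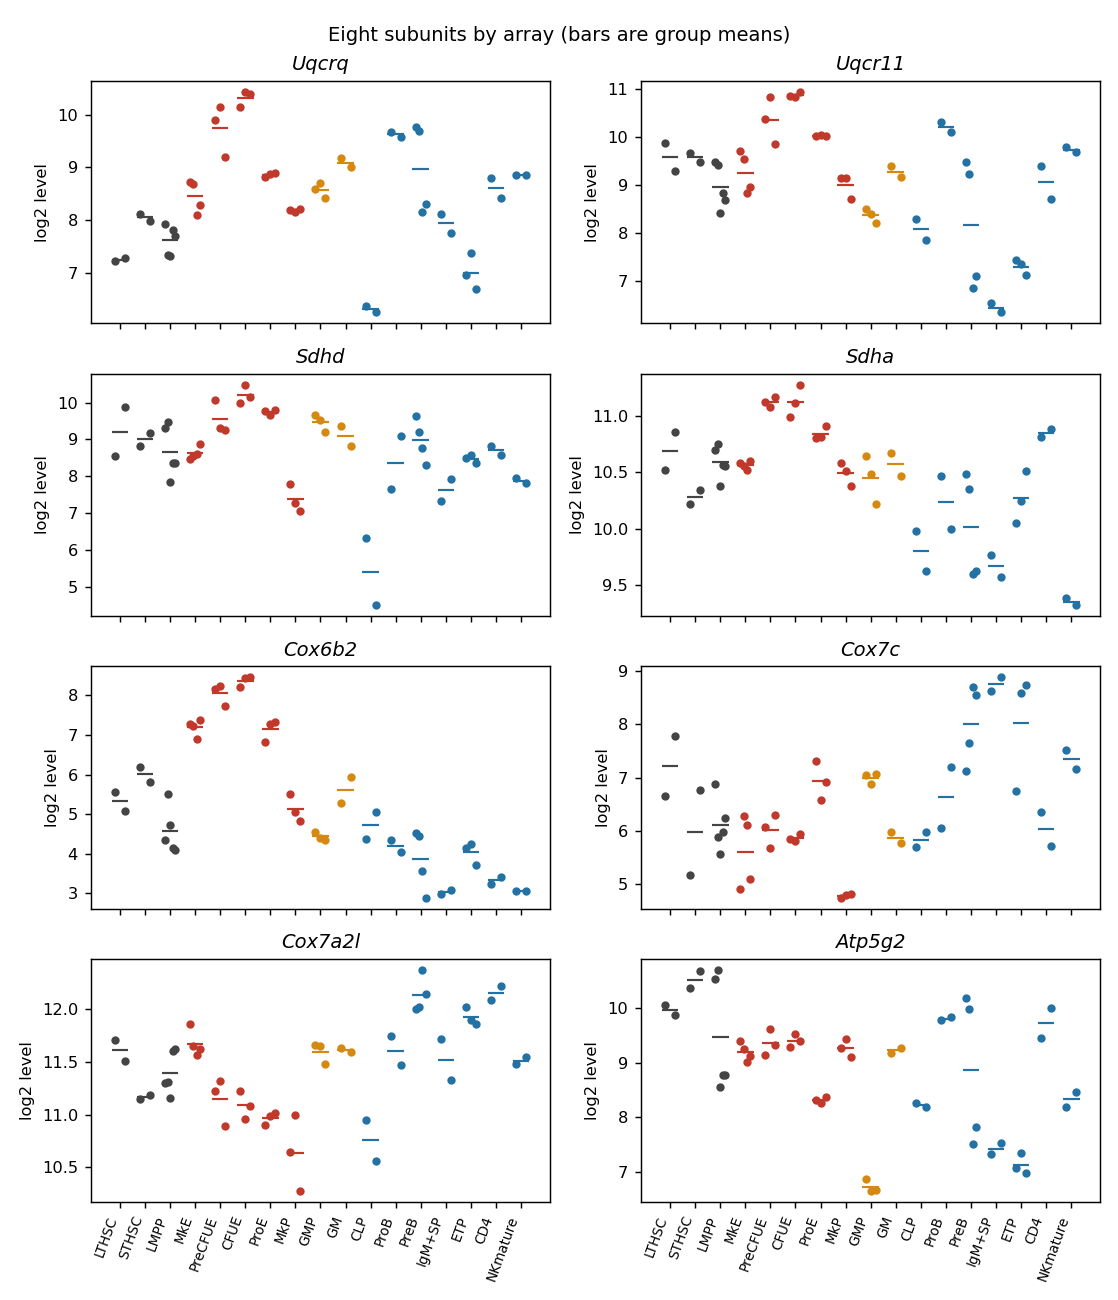
Log2 level per array of 8 subunits, one panel each, by population, with points for arrays and bars for group means. Uqcrq, Uqcr11, Sdhd and Cox6b2 are highest in CFUE, Cox7c is lowest in MkP and highest in IgM+SP, Cox7a2l is lowest in MkP, and the Atp5g2 arrays of LMPP and PreB each fall into separate sets.

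Differences between populations were tested in 11 comparisons with limma on all 13949 genes, and a gene is called where the Benjamini-Hochberg adjusted p is under 0.05 with no minimum size. Several comparisons share arrays. MkE is a side of 3 of them, and LTHSC, PreCFUE, CFUE, CLP and PreB each of 2, so their values are given side by side and not combined.

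Between the stem cell populations STHSC and LTHSC no subunit was called, against 2.77% of all genes called higher and 6.66% lower. At an unadjusted p under 0.05, 9 of 78 subunits were higher and 3 lower, against 930 and 2258 of all 13949 genes. The median difference, STHSC minus LTHSC, was 0.15 over the subunits and -0.13 over all genes, and after quantile normalization 6 subunits were called higher and 1 lower, with a median of 0.36 and 3.6% and 4.69% of all genes called.

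In MkE, which expresses Gata1 and Itga2b, 20 subunits were higher than in LTHSC and 4 were lower. The background was 14.8% of all genes higher and 15.8% lower. Of 35 complex I subunits 10 were higher. Ndufs8, an iron-sulfur subunit of complex I, measured 8.53 and 8.79 in LTHSC and 10.49, 10.38, 10.26 and 10.21 in MkE, without overlap. It rose by 1.67 ± 0.23 (limma log2 difference ± SE, adjusted p 3.5e-07), Cox6b2 by 1.87 ± 0.33 (2.5e-05), the small complex I subunit Ndufc1 by 1.44 ± 0.26 (3.57e-05) and Ndufb6, of the membrane arm, by 1.35 ± 0.26 (9.29e-05). Cox7c fell by 1.61 ± 0.46 (adjusted p 0.00677), and without LTHSC array 2 it was -1.04 (adjusted p 0.194). Uqcrh fell by 1.38 ± 0.49 (0.0278) and Atp5b, the catalytic beta subunit of ATP synthase, by 1.06 ± 0.41 (0.0477), and both calls were lost without 1 or another single array. Cox4i2, the other subunit counted as lower, passed the filter through LTHSC alone (4.06, against 3.44 in MkE), so its difference is not read as a result. The median difference was 0.15 on the deposited scale, 0.0374 without MkE array 1, 0.0735 without MkE array 2 and 0.0476 with averaged probe sets. With the Xist and Eif2s3y class as a block it was -0.70, with 8 subunits higher and 33 lower against 15.3% and 24.5% of all genes. The sign turned with the block, whose shift comes from the PreB arrays alone, so the direction was not settled. Without LTHSC array 1 there were 12 calls, and without LTHSC array 2 there were 15.

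Some subunits of every complex rose from MkE to PreCFUE, a population that expresses the erythroid genes Klf1 and Epor. Of the 78 subunits 27 were higher and 1 lower, against 7.44% of all genes higher and 8.08% lower, and 73 had a difference above 0. The median difference was 0.56, against 0.03 for all genes. Higher were 13 of 35 subunits of complex I, 2 of 4 of complex II, 2 of 8 of complex III, 7 of 14 of complex IV and 3 of 17 of ATP synthase. Uqcrq rose by 1.29 ± 0.26 (adjusted p 0.000439), with all PreCFUE arrays above all MkE arrays. Its other probe sets were dim, and their average with it gave 0.36 (adjusted p 0.0749). Ndufc1 rose by 1.02 ± 0.23 (0.00134), Sdhb by 1.01 ± 0.29 (0.0138) and Sdha by 0.56 ± 0.17 (0.0208). Atp5g1 measured 8.89, 8.45, 8.31 and 8.28 in MkE and 9.40, 9.78 and 9.38 in PreCFUE, and rose by 1.04 ± 0.29 (0.00901). Without PreCFUE array 2 it was 0.91 (adjusted p 0.0659). Uqcr11 rose by 1.10 ± 0.38 (0.0416), a call lost without MkE array 3 or 4 or PreCFUE array 1 or 2. Cox7a2l was the subunit that fell. It measured 11.86, 11.65, 11.56 and 11.62 in MkE and 11.22, 11.32 and 10.89 in PreCFUE, a difference of -0.53 ± 0.15 (adjusted p 0.0146) that its 3 probe sets shared at -0.49 to -0.53. It did not pass without MkE array 1 (0.0531) or PreCFUE array 3 (0.132). After quantile normalization 25 subunits were higher and 1 lower with a median of 0.52. Without PreCFUE array 2, 14 subunits were called.

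Other mitochondrial gene groups moved with the subunits at this step. Of 76 genes of the mitochondrial ribosome 34 were higher and none lower (median 0.64), and 11 of 20 protein import genes were higher (0.62). The TCA cycle list had 3 of 12 higher, among them Idh3a, a subunit of isocitrate dehydrogenase, at 1.01 ± 0.23 (adjusted p 0.00128). Cyc1, the cytochrome c1 subunit of complex III that the symbol rule does not take, rose by 1.04 ± 0.19 (0.000139), and Cycs, the soluble electron carrier between complexes III and IV, by 0.75 ± 0.19 (0.00442). Of 40 assembly factors 5 were higher, led by the copper chaperone Cox11 at 1.13 ± 0.23 (0.000401). None of 18 regulators of mitochondrial genes was higher and 1 was lower, Gabpb1, the partner of the DNA-binding GABP subunit, at -1.03 ± 0.29 (0.0105).

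From PreCFUE to CFUE no subunit was called, against 1.83% of all genes higher and 2.43% lower. At an unadjusted p under 0.05, 4 of 78 were higher and 1 lower. Of all 13949 genes 1013 were higher and 943 lower, a larger share both ways. The median difference was 0.20, and 62 of 78 differences were above 0. Without PreCFUE array 3 the median was 0.0942, and without PreCFUE array 2 it was 0.31.

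In ProE 5 subunits were lower than in CFUE and none higher, against 5.55% of all genes lower and 3.53% higher, which is near the background share. The median difference was -0.25, with 11 subunits above 0. Without ProE array 1 there were 2 calls, and without any other array of these populations 3. Uqcrq was lower by the difference -1.46 ± 0.28 (adjusted p 0.000437), without overlap of arrays. Cox6b2, at 6.83, 7.28 and 7.32 in ProE, differed by -1.22 ± 0.31 (0.00769), and without ProE array 1 by -1.06 (0.0626). Ndufa7, a complex I subunit at 8.73, 8.81 and 8.91 in CFUE and 7.66, 7.53 and 7.63 in ProE, fell by 1.21 ± 0.32 (0.01). Ndufc1 fell by 0.77 ± 0.24 (0.04), a call lost without any single array of either population. ProE carries Eif2s3y and CFUE Xist. With the class as a block the median was 0.47 with 19 subunits higher and none lower, against 11.5% and 7.29% of all genes. Uqcrq, Cox6b2, Ndufa7 and Ndufc1 then stood at 0.03, 0.03, 0.28 and 0.25. Here too the shift made by the block comes from the PreB arrays alone, so the direction was not settled. Of the assembly factors 7 of 40 were lower and 1 higher, with a median of -0.44, led by Sco2, which delivers copper to complex IV, at -1.58 ± 0.20 (adjusted p 3.21e-07). With the class as a block 5 were lower and 3 higher, with a median of 0.20.

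In MkP, which expresses Pf4 and Gp9, 11 subunits were lower than in MkE and 1 was higher, against 20.8% of all genes lower and 11.2% higher, and the direction depends on the scaling. The median difference was -0.21 on the deposited scale and 0.08 after quantile normalization, where 7 subunits were higher and 6 lower, against 14.4% and 10.3% of all genes, and the share of higher genes among all calls went from 34.9% to 58.3%. Without MkP array 3 the subunit median was -0.12, with 7 lower and 1 higher. The median of all genes was -0.08 on the deposited scale, 0.05 after quantile normalization and -0.20 with arrays centred on their medians. Cox6b2 measured 5.50, 5.05 and 4.83 in MkP against 7.27, 7.22, 6.90 and 7.37 in MkE, without overlap. Its difference was -2.06 ± 0.29 (adjusted p 1.01e-06). Uqcrh measured 7.41, 7.96 and 7.31 against 9.76, 9.76, 8.18 and 10.03, a difference of -1.87 ± 0.43 (0.00113). Atp5l fell by 1.21 ± 0.30 (0.00228), Sdhd by 1.25 ± 0.37 (0.00899), and Sdhd did not pass after quantile normalization (-0.83, adjusted p 0.0982) or without MkP array 3 (0.059). Ndufv3, a small flavoprotein subunit of complex I, was the gene that rose, by 0.78 ± 0.23 (0.0095).

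The other mitochondrial lists were lower in MkP than in MkE on the deposited scale, with 30 of 76 mitochondrial ribosome genes (median -0.47), 15 of 40 assembly factors, 11 of 20 import genes and 9 of 18 regulators, and none higher. Tfam, which packages and transcribes mitochondrial DNA, fell by 1.16 ± 0.23 (adjusted p 0.00024). After quantile normalization 8 ribosome genes were lower and 4 higher (-0.06), and 3 regulators were lower and 1 higher.

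Among the complexes, complex I and complex IV had the largest shares of subunits higher in GMP, which expresses Mpo and Elane, than in LMPP. Of the 78 subunits 30 were higher in GMP and 6 lower, against 21.5% of all genes higher and 15% lower. Higher were 17 of 35 subunits of complex I (48.6%) and 6 of 14 of complex IV (42.9%), and none of complex II. In complex III 2 of 8 were higher (25%) and in ATP synthase 5 of 17 (29.4%), close to the share of all genes. Over all subunits the median was 0.29, against -0.03 for all genes. Ndufb5, a membrane arm subunit, measured 9.50, 9.51, 9.39, 9.58 and 9.63 in LMPP and 11.11, 11.16 and 11.00 in GMP. It rose by 1.57 ± 0.14 (adjusted p 2.24e-11), Ndufa5 by 1.70 ± 0.22 (1.41e-07), Ndufb6 by 1.30 ± 0.22 (1.11e-05) and Ndufb10 by 1.17 ± 0.26 (0.000469). Atp5g2 measured 10.52, 10.69, 8.56, 8.78 and 8.78 in LMPP and 6.88, 6.67 and 6.67 in GMP, a difference of -2.72 ± 0.41 (1.52e-06). Uqcrh (-1.49 ± 0.41, adjusted p 0.00414), whose arrays overlapped, Atp5o (-0.99 ± 0.28, adjusted p 0.00447), the stalk subunit that holds the catalytic head of ATP synthase, and Cox8a (-0.96 ± 0.28, adjusted p 0.00585) were lower too.

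The size of the GMP difference changed with the scaling, with the arrays used and with the Actb gap as a covariate. The gaps of GMP (6.32 to 6.54) and LMPP (1.90 to 3.93) do not overlap, so gap and population cannot be told apart here. The covariate takes its slope from differences among arrays within populations. After quantile normalization 25 subunits were higher and 10 lower with a median of 0.08, against 17.6% and 17.8% of all genes. Within the arrays that carry Eif2s3y alone (3 GMP, 2 LMPP) 20 were higher and 14 lower with a median of 0.06, against 21.1% and 16.9% of all genes, which is near the background, and Ndufb10 stood at 0.49 (adjusted p 0.138). With the Actb gap as a covariate 49 were higher and none lower with a median of 0.86, against 26.2% and 13.4% of all genes, Atp5g2 stood at -0.81 (0.0555), and Atp5o and Cox8a turned to 0.30 and 0.0854. Among the other lists 32 of 76 mitochondrial ribosome genes were higher and 4 lower, 7 of 12 TCA cycle genes and 7 of 12 carriers and cytochromes were higher and none lower, and Cyc1 rose by 1.24 ± 0.19 (adjusted p 1.6e-06). The ribosome median was 0.37, against 0.19 after quantile normalization (26 higher, 7 lower) and 1.07 with the covariate (59 higher, 2 lower), and 4 TCA cycle genes were higher after quantile normalization. Of 18 regulators 8 were higher and 2 lower (median 0.50), and among the lower ones Gabpb1 fell by 1.79 ± 0.28 (2.27e-06).

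PreB, which expresses Ebf1 and Rag1, had higher levels than CLP for most subunits. Higher were 59 of 78 and lower 3, against 33.5% of all genes higher and 25.4% lower, and 39 rose by at least 2-fold (25% of all genes). Over the subunits the median difference was 1.04, against 0.06 for all genes. All 4 complex II subunits had a difference above 0 and 3 were called, with 28 of 35 in complex I, 6 of 8 in complex III, 14 of 17 in ATP synthase and 8 of 14 in complex IV. Ndufs4, an accessory subunit of complex I, measured 5.27 and 6.03 in CLP and 8.84, 8.77, 8.80 and 8.96 in PreB, a rise of 3.19 ± 0.23 (adjusted p 4.4e-14). Its 4 PreB arrays lay between 8.77 and 8.96, while their Actb gaps ran from 1.59 to 6.11. Sdhd rose by 3.57 ± 0.42 (4.89e-09), Uqcrh by 2.97 ± 0.49 (3.3e-06) and Uqcrfs1, the Rieske iron-sulfur protein of complex III, by 2.82 ± 0.32 (1.93e-09). The 3 called lower belong to the alternative forms in complex IV, Cox8b (-0.88 ± 0.25, adjusted p 0.00274), which lay under the filter in PreB (3.71) and had its highest level in CLP (4.58), Cox8c (-0.60 ± 0.16, 0.0017) and Cox6b2 (-0.86 ± 0.33, 0.0241), the last with overlapping arrays and lost without CLP array 2 or PreB array 3 or 4.

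After quantile normalization 32 subunits were higher in PreB than in CLP and 8 lower, with a median of 0.34, against 24% and 30.2% of all genes. The median of all genes moved from 0.06 to -0.08 with that scaling, and to 0.33 with arrays centred on their medians. Within the arrays with Eif2s3y alone (2 PreB, 2 CLP), whose Actb gaps are alike at 5.14 to 6.11, 46 subunits were higher and 6 lower with a median of 0.67, against 30.6% and 24.7% of all genes. Of the mitochondrial ribosome 63 of 76 genes were higher and none lower on the deposited scale, with a median of 1.32, and 41 and 3 after quantile normalization. Of 18 regulators 11 were higher and 3 lower (median 1.15), and 8 and 6 after quantile normalization. Tfam rose by 2.45 ± 0.26 (adjusted p 7.98e-10), while the coactivators Ppargc1b and Pprc1, which drive mitochondrial biogenesis through NRF1, GABP and estrogen-related receptors, fell by 2.93 ± 0.26 (9.42e-12) and 2.53 ± 0.27 (7.07e-10).

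In IgM+SP, which expresses Ms4a1 and Cr2, 42 subunits were lower than in PreB and none higher, against 15.1% of all genes lower and 7.1% higher, with a median of -0.70. The count moved with the arrays used. Within the arrays with Eif2s3y alone (2 IgM+SP, 2 PreB), 8 subunits were lower and none higher with a median of -0.30, against 6.54% and 3.3% of all genes. With the Actb gap as a covariate 6 were lower and none higher with a median of -0.31, against 5.42% and 3.14% of all genes, and in a limma fit of these 6 arrays alone none was called, with 20 lower and none higher at an unadjusted p under 0.05. Ndufs5 measured 7.28, 7.55, 5.15 and 5.76 in PreB and 4.22 and 4.61 in IgM+SP, a difference of -2.02 ± 0.39 (adjusted p 0.000189). Sdhc measured 8.02, 7.89, 6.06 and 6.50 against 5.21 and 5.40, a difference of -1.81 ± 0.44 (0.00255). A second probe set of Sdhc gave 0.22. Uqcr11 was lower by the difference -1.73 ± 0.43 (0.00321) and Ndufa4 by -1.64 ± 0.38 (0.00152), and within the shared class they stood at -0.54 (0.238) and -0.55 (0.171). There were 21 calls without PreB array 1, 23 without PreB array 2, 21 without IgM+SP array 1, 11 without IgM+SP array 2 and 54 without PreB array 3. Of the mitochondrial ribosome 42 of 76 genes were lower and none higher, 9 lower and 1 higher with the covariate. Of 40 assembly factors 13 were lower and 1 higher, Ndufaf4, which serves complex I and rose by 1.90 ± 0.29 (adjusted p 5.48e-06). Of 18 regulators 4 were lower and 2 higher, Ppargc1b (1.30 ± 0.26, adjusted p 0.000339) and Pprc1 (1.11 ± 0.27, adjusted p 0.00271). With the covariate 3 assembly factors were lower and 1 higher, and 1 regulator was lower and 2 higher. After quantile normalization 2 regulators were lower and 5 higher, so the balance of that list changed with the scaling.

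Between CD4 and ETP, 32 subunits were higher in CD4 and 6 lower, against 19.7% and 17.9% of all genes, with a median of 0.56. The higher calls did not hold with the RNA measure or the class. With the Actb gap as a covariate 3 subunits were higher and 13 lower with a median of -0.22, against 9.87% and 16.9% of all genes. With the class as a block 2 were higher and 12 lower with a median of -0.35, against 9.65% and 15.2%. The block takes the difference of Xist from Eif2s3y arrays from PreB, where the gap differs too, so these settings are not separate checks. The lower counts are near the background in both. Atp5e measured 6.96, 7.48 and 6.90 in ETP and 9.99 and 10.01 in CD4, a rise of 2.89 ± 0.41 (adjusted p 3.06e-07) that passed in every setting tried. Ndufa7 rose by 2.29 ± 0.35 (1.74e-06) and Uqcrh by 2.01 ± 0.52 (0.00183). Atp5g2 rose by 2.58 ± 0.51 (8.42e-05), and stood at -0.23 with the covariate and -0.62 with the class as a block. The subunits that fell include Cox7c (-1.98 ± 0.49, 0.00121), at 6.75, 8.58 and 8.73 in ETP and 6.36 and 5.72 in CD4, Ndufc2 (-0.89 ± 0.20, 0.000374), Cox5a (-0.88 ± 0.18, 0.000154) and Atp5pb (-0.87 ± 0.24, 0.00345). None of these named falls passed with the covariate or with the class as a block, though all kept their sign. With averaged probe sets Ndufc2 stood at -0.32 (adjusted p 0.107) and Atp5pb at 0.17 (0.702), so neither passed. A second probe set of Cox5a gave 0.21, one of Atp5pb gave 1.22, and Atp5pb did not pass without CD4 array 2 (-0.62, adjusted p 0.129). Atpif1, the inhibitor that stops ATP synthase from running backwards, fell by 2.07 ± 0.25 (1.44e-08), and of the 12 carriers and cytochromes 6 were lower and none higher, 9 with the covariate.

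NKmature, which expresses Ncr1 and Prf1, had the most subunits above the reference population. Compared with CLP 65 were higher and 3 lower, against 35.8% and 23% of all genes, and 55 were at least 2-fold higher (29.1% of all genes). The median difference was 1.54, against 0.17 for all genes. After quantile normalization 47 were higher and 4 lower with a median of 0.87, against 24.5% and 28.2% of all genes, and the median of all genes moved to -0.07, or to 0.41 with arrays centred on their medians. With the Actb gap as a covariate the median was 1.11. Atp5l rose by 4.90 ± 0.39 (adjusted p 8.02e-13), Atp5e by 4.11 ± 0.44 (1.15e-09), the membrane subunit Atp5j2 by 3.35 ± 0.35 (4.01e-10) and Ndufb6 by 2.86 ± 0.30 (5.74e-10). A second probe set of Atp5j2 gave -1.09. Sdha was 9.39 and 9.33 in NKmature and 9.98 and 9.63 in CLP, the complex II subunit without a higher value. The 3 lower were Cox6b2 (-1.65 ± 0.38, adjusted p 0.000354), Cox8b (-0.78 ± 0.29, 0.0188), which lay under the filter in NKmature (3.80), and Cox8c (-0.59 ± 0.19, 0.00704). None of the 3 passed in every setting. With intensities under 16 raised to 16, Cox6b2 stood at -0.72 (adjusted p 0.0501). Cox8b did not pass after quantile normalization (0.0503), with median centring (0.0859) or with the covariate (0.0619). Cox8c did not pass with median centring (0.0612) or averaged probe sets (0.0695). The comparison shares its CLP arrays with that of PreB. Of the mitochondrial ribosome 60 of 76 genes were higher and none lower, and 42 and 3 after quantile normalization.

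**Figure D5:**
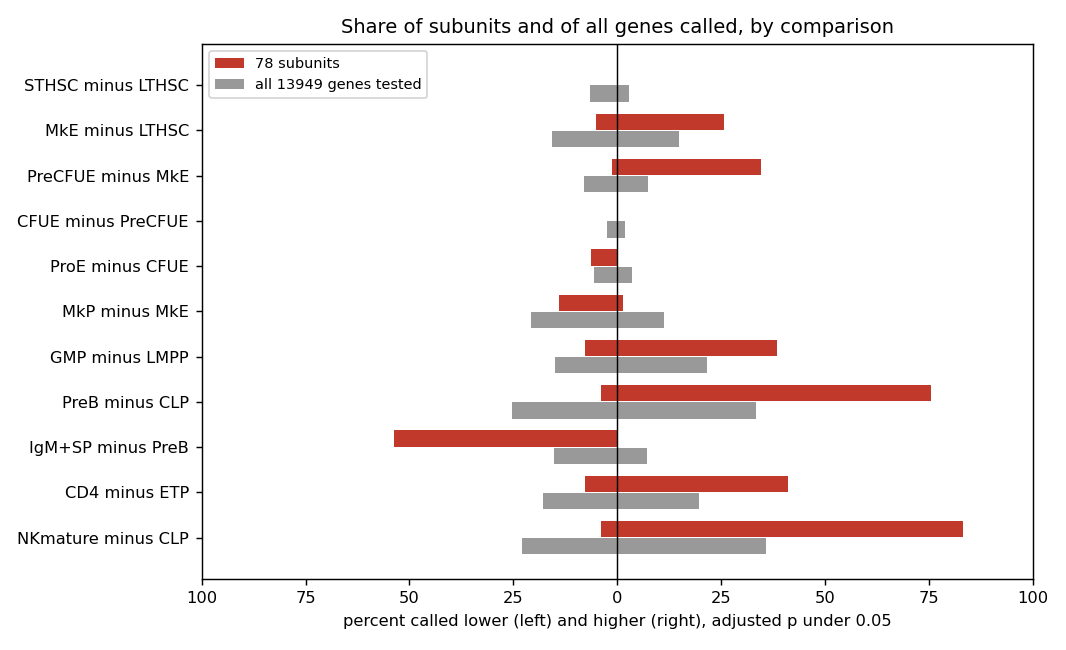
Share of genes called higher (right of 0) and lower (left of 0) in each of the 11 comparisons at an adjusted p under 0.05, for the 78 tested subunits and for all 13949 genes. The subunits exceed all genes most for PreB over CLP (59 of 78 higher), NKmature over CLP (65 of 78 higher) and IgM+SP against PreB (42 of 78 lower), and are near or below all genes for STHSC against LTHSC, CFUE against PreCFUE, ProE against CFUE and MkP against MkE.

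Probe sets of a gene did not always go the same way. For 47 of the subunit genes another probe set lay over the filter, and of 345 pairs of such a probe set and a comparison where its gene was called, 53 had the opposite sign, 3 of them by more than 1 on the log2 scale. They fell on 23 genes. The called values above are those of the probe set brightest over all arrays. Of the probe sets used for the 78 tested subunits, 21 carry the array maker's suffixes for shared sequence, so related transcripts may add to them. The plot of called shares and the levels by array rest on the same choice.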

How the data were processed

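RNA of sorted bone marrow cells was hybridised to 47 Affymetrix arrays. Per the series' design text the authors computed probe set values with RMA, and the deposited table holds them as linear intensities of 45101 probe sets. Log2 was taken with no pseudocount. The platform annotation gives 34958 probe sets a single symbol and 932 several, and does not list 9211. Each gene was represented by its brightest probe set over all arrays. The median log2 value of the table, 3.89, served as the filter, and the 13949 genes whose mean passed it in at least 1 population were tested. One limma 3.58.1 model in R 4.3.3 was fitted to the 17 population means (30 residual degrees of freedom), with Benjamini-Hochberg adjustment within each comparison, and was tested on simulated data.

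The subunits, pathway lists and motifs were chosen with earlier results of these data known. The text names, per comparison, up to 4 subunits with the largest rise and fall, those with the largest and smallest ranges, succinate dehydrogenase, isoform families, the 4 with the lowest correlation, and up to 3 genes per pathway list.

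Alternatives were quantile normalization, array median centring, averaged probe sets, other filters, a floor of 16, the replicate number or the Xist and Eif2s3y class as a block, the compared arrays alone, and each array left out. Precision is limited by the number of arrays. The labels do not say whether arrays with the same replicate number belong together, so the model did not pair them.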

Additional observations from a re-analysis of the deposited data

Results flagged for a closer look

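Within populations of 4 or 5 arrays, 9 of 114 sets of values held an array that stood apart from the others of its population by the size of its gap to the nearest, where chance gives about 1 in 20. LMPP array 3 accounted for 6 of them and was low each time. Its complex IV level was -0.533 against -0.2144 to -0.0992 on the other LMPP arrays. Its Atp5g3 level was 11.7744 (others 12.2686 to 12.4027), its Atp5l level 5.1229 (5.6741 to 5.7405), its Cox7a2 level 10.3875 (11.1957 to 11.3372), its Uqcrb level 12.0964 (13.0781 to 13.1066) and its Uqcrh level 8.1206 (9.9797 to 10.4262). MkE array 3 was low for complex III, at -0.2601 against 0.1311 to 0.2098, and for Uqcrh, at 8.1807 against 9.7592 to 10.0324. Cox4i2 was high on PreB array 2, at 3.479 against 3.2788 to 3.3084, where all values lie under the filter. The causes were not tested.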

How the results depend on the processing

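Call counts below are over the 78 tested subunits. The Actb covariate and the fits within a shared Xist and Eif2s3y class were chosen after seeing the data. The class block takes the difference between arrays of Xist alone and of Eif2s3y alone from the PreB arrays only. For STHSC against LTHSC, with no call in the report, quantile normalization gave 7 calls (median 0.36), array median centring 1, averaged probe sets 2, the floor 1, the class block 8, the Actb covariate 4 and leaving out an array 0 to 3. For MkE against LTHSC (24 calls) averaged probe sets gave 15, the class block 41 (median -0.70) and leaving out an array 12 to 23, and the covariate moved the median to 0.37. PreCFUE against MkE (28) gave 14 to 27 with an array left out. CFUE against PreCFUE (no call) gave 1 with averaged probe sets, with the floor and with the compared arrays alone, and 0 to 1 with an array left out. ProE against CFUE (5) gave 19 with the class block (median 0.47), 29 with the compared arrays alone and 2 to 3 with an array left out. The median of MkP minus MkE turned to 0.0805 with quantile normalization. The median of GMP minus LMPP was 0.0765 with quantile normalization, 0.86 with the covariate and 0.0625 within the class. PreB against CLP (62) gave 40 with quantile normalization and 33 with the compared arrays alone, with medians of 0.34 (quantile), 1.28 (centring) and 0.67 (class block and within the class). IgM+SP against PreB (42) gave 6 with the class block (median -0.30), 6 with the covariate (-0.31), 8 within the class (-0.30), 0 with the compared arrays alone and 11 to 54 with an array left out. CD4 against ETP (38) gave 14 with the class block (median -0.35) and 16 with the covariate (-0.22). The median of NKmature minus CLP was 0.87 (quantile), 1.75 (centring), 1.83 (class block) and 1.11 (covariate). The span of population means was 1.41 (quantile) and 2.22 (centring), against 1.95.

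With the replicate number as a block, 5 subunits were called for STHSC against LTHSC and 8 for ProE against CFUE, and the median of PreB minus CLP was 1.25. The labels do not say that numbers are shared between populations, and deviations of same-numbered arrays correlated with mixed signs. The block changed the direction of none of the 56 named differences, and 2 of them no longer passed.

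Reversed differences were Uqcrq 0.0257, Cox6b2 0.0291, Ndufa7 0.28 and Ndufc1 0.25 for ProE minus CFUE with the class block. Others were Atp5o 0.30 and Cox8a 0.0854 for GMP minus LMPP with the covariate. For CD4 minus ETP they were Atp5g2 at -0.62 (class block) and -0.23 (covariate), and Atp5pb at 0.17 (averaged probe sets). The causes were not tested. Of the 56 named differences 54 passed with the same sign after quantile normalization, 52 after centring, 39 with the covariate and 37 with the class block. Of 340 values with an array left out, 34 no longer passed and none changed sign.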
